A study of Arabidopsis thaliana with 12 samples.

Results

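The comparison set UV-B radiation against the hormone abscisic acid (ABA) in Col-0, the common wild-type accession of Arabidopsis thaliana. Its members were the 3 libraries of Col-0 seedlings under white light plus UV-B and the 3 libraries of Col-0 seedlings given ABA in white light, 6 of the 12 libraries in all. Of 32833 loci, the 19089 with at least 1 TPM (transcript share scaled to a common total, corrected for length) in 3 or more of these 6 libraries were compared. Whole seedlings were 10 days old, had grown in long days (16 h of light, 8 h of darkness) and were treated for 3 h. The UV-B group received 5 µmol m-2 s-1 UV-B and no ABA, and the ABA group received 50 µM ABA and no UV-B, so the groups differ in both agents at once. The other 6 libraries, given here as levels beside the comparison, were Col-0 in white light with neither agent and uvr8, a mutant of the UV-B receptor gene, under the same UV-B without ABA. The labels name no uvr8 allele, and no ABA library of uvr8 was analysed here. Each group held 3 biological replicates raised separately from germination on, per the labels.

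UV-B is perceived in plants by the photoreceptor UVR8, which binds the E3 ligase COP1 and so allows the bZIP transcription factors HY5 and HYH to accumulate. Known targets are genes for photolyases, for early light-induced proteins of the thylakoid and for flavonoid sunscreens, as well as RUP1 and RUP2, which switch the receptor off. ABA, the hormone of drought and seed dormancy, is bound by PYR/PYL receptors that then inhibit clade A protein phosphatases of type 2C (PP2C), which frees SnRK2 kinases to activate bZIP factors of the ABF group. These factors bind ABA-responsive elements with an ACGT core, and HY5 binds related ACGT elements.

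The 6 libraries detected between 18557 and 18950 genes at 1 TPM or more. Spearman correlations of TPM across genes lay between 0.976 and 0.978 within a group and between 0.947 and 0.952 across the groups. Organelle-encoded transcripts took 0.88, 0.6 and 0.27% of TPM under UV-B and 1.31, 1.69 and 1.11% under ABA, and ribosomal RNA genes took 1.3, 1.9 and 2.6% against 3.51, 5.1 and 2.87%. Both shares were higher in every ABA library than in any UV-B library, and with organelle, ribosomal and short genes left out and the TPM rescaled 6032 genes were higher under UV-B and 5112 lower, none called in the opposite direction to the fit of all genes given next. TPM are relative to the library's total and keep no depth, so a value of 0 means only that the gene is listed at 0. Exons of PHR1, MYC2, ABF1, ABF4, SPA3, PYL7, SNRK2.8, COR15B and UGT75C1 overlap a gene on the opposite strand by 100 bp or more. The same holds for UGT74C1, PSY, PYK10, HSP101, ECT8, SARD1, KNOLLE and LHCB1.3, and LDOX has a near-identical copy. Values of all these genes are uncertain to that extent, since the sources used here do not state whether reads were counted by strand. In whole seedlings, fewer cells of a type and less RNA per cell cannot be told apart.

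With UV-B set against ABA, 11115 of the 19089 genes (58.2%) passed the test, limma on log2(TPM + 1) with Benjamini-Hochberg adjustment at 0.05. Levels under UV-B were higher for 6359 genes (33.3%) and lower for 4756 (24.9%). Differences of at least 2-fold on this scale were found for 1612 genes in the UV-B direction (8.44%) and 1529 in the ABA direction (8.01%), and differences of at least 16-fold for 51 and 59. Every count of list members below is to be read beside these shares of all genes. Over all genes tested the median difference was 0.08. After TMM-style scaling of the TPM, which places that median at 0.008, 5702 genes were higher under UV-B and 5725 lower, with no gene called in opposite directions, so small differences depend on the scale. Differences are UV-B minus ABA on log2(TPM + 1) with their standard error, levels are TPM in replicates 1, 2 and 3, and genes called higher or lower without a group were so under UV-B.

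**Figure D1:**
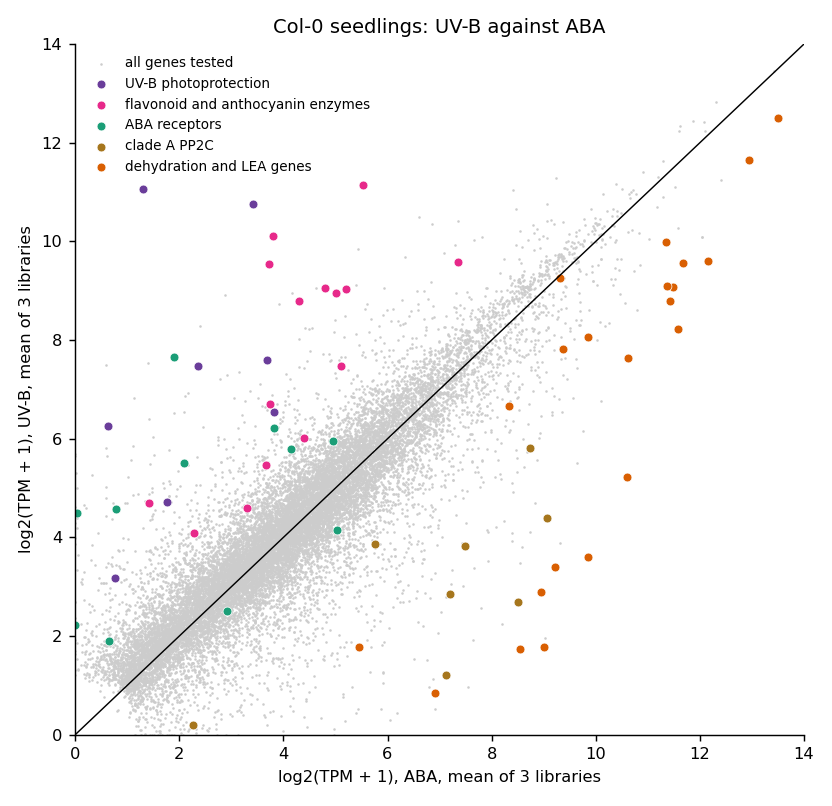
Mean log2(TPM + 1) of 3 libraries under ABA (x axis) and under UV-B (y axis) for the 19089 genes tested (grey), with 5 gene lists coloured and the line of equal levels in black. The photoprotection and flavonoid genes lie above the line, the PP2C and dehydration genes below or on it, and 9 of the 11 ABA receptor genes tested were called above it.

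All 8 genes of UV-B photoprotection were higher under UV-B than under ABA, each by more than 2-fold, with a median difference of 4.53, beside 33.3% of all genes called higher and 8.44% by 2-fold. This and the other lists were chosen with earlier results of these data known, so their counts describe the members and test nothing. ELIP2, which encodes an early light-induced chlorophyll-binding protein of the thylakoid, had the highest difference of all. It stood at 2032, 2279 and 2128 TPM under UV-B and 0.58, 1.51 and 2.34 TPM under ABA, a difference of 9.82 ± 0.34 (adjusted p = 2.46e-10). Its relative ELIP1 held 1723, 1771 and 1699.9 TPM under UV-B against 9.25, 6.16 and 13.7 TPM under ABA (7.4 ± 0.22, adjusted p = 7.42e-11). The groups did not overlap for either gene, and ABA levels of ELIP1 were above the 0.89 ± 0.14 TPM of white light (mean ± SD, n = 3). In uvr8 under UV-B, ELIP2 averaged 0.45 ± 0.78 and ELIP1 1.57 ± 0.55 TPM. The 250 bases before the annotated start of each gene are shown because these genes head the comparison, on the gene's own strand and 5′ to 3′, from the RefSeq TAIR10.1 assembly at chr4:8417992-8418241 (plus strand) and chr3:8085670-8085919 (minus strand). Capitals mark ACGTG on either strand, the CACGTG that contains it, and CCGAC, the core of the dehydration-responsive element.
ELIP2: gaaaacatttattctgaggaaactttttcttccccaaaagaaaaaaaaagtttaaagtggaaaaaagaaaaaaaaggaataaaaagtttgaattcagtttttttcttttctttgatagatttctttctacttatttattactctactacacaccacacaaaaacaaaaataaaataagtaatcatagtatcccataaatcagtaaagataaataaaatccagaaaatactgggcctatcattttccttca
ELIP1: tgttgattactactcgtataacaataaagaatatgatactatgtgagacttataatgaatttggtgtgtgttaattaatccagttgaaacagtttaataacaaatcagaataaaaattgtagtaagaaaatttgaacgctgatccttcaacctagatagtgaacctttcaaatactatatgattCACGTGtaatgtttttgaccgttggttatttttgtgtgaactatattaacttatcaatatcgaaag
The ELIP2 window holds none of these motifs, and the ELIP1 window holds 1 CACGTG, 65 bases before the start.

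The photolyase genes were also higher under UV-B. PHR1, whose enzyme repairs cyclobutane pyrimidine dimers, held 27.7, 25.7 and 22.5 TPM against 2.51, 2.39 and 2.32 TPM (2.95 ± 0.12, adjusted p = 9.21e-10). UVR3, for the photolyase of the other main UV lesion, held 8.46, 8.13 and 7.47 against 0.54, 0.57 and 0.96 TPM (2.42 ± 0.15, adjusted p = 4.47e-08). CRY3, a cryptochrome of the DASH type found in organelles, held 93.8, 90.8 and 91.7 against 12.3, 12.2 and 14.9 TPM. SIG5, a plastid sigma factor that responds to light, stood at 199.8, 192 and 186 TPM under UV-B and 11.9, 10.9 and 12.6 TPM under ABA, and all 3 ABA libraries lay above the white-light mean of 1.85 ± 0.11 TPM. GPX7, for a plastid glutathione peroxidase-like enzyme, held 80.5, 72.3 and 73.3 against 0.66, 0.58 and 0.41 TPM (5.62 ± 0.13, adjusted p = 1.42e-11). For UGT84A1, a glucosyltransferase gene of hydroxycinnamic acids, the values were 201, 165 and 166 TPM under UV-B and 4.7, 2.92 and 4.74 TPM under ABA (5.14 ± 0.18).

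Of the 17 genes of UVR8 signalling, 14 were higher under UV-B than under ABA, 2 were lower and 1 did not pass, with a median difference of 1.51. The shares over all genes were 33.3% higher and 24.9% lower. The receptor gene UVR8 itself was among the lower ones. Its transcript held 66.9, 73.8 and 71.1 TPM under UV-B and 95.2, 89.96 and 98.8 TPM under ABA (-0.42 ± 0.07, adjusted p = 0.000248), beside 107 ± 1.03 TPM in white light and 21.8 ± 1.55 TPM in uvr8. The highest differences belonged to the repressors of the receptor and to HY5. RUP2 held 117, 129 and 115 TPM against 3.14, 4.13 and 3.18 TPM (4.76 ± 0.16, adjusted p = 1.83e-10), and RUP1 differed by 4.54 ± 0.12. Under ABA, RUP1 and RUP2 lay near their white-light means of 1.95 ± 0.28 and 3.12 ± 0.44 TPM.

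HY5, the bZIP factor of photomorphogenesis, held 83.3, 101 and 92.6 TPM under UV-B and 3.84, 2.89 and 3.11 TPM under ABA (4.45 ± 0.42, adjusted p = 1.71e-06). The 3 ABA libraries all lay above white light, where HY5 was listed at 0, 0.16 and 0 TPM. HYH, its close homologue, held 325, 284 and 297 against 17.1, 26.1 and 24.3 TPM (3.71 ± 0.19). COP1 differed by 1.51 ± 0.11, and of the SPA genes, whose proteins act with COP1, SPA3 differed by 2.63 ± 0.15 and SPA4 did not pass (0.24 ± 0.14, adjusted p = 0.157). SPA4 averaged 16.1 ± 2.2 TPM under UV-B and 13.6 ± 2.25 TPM under ABA, both above the 6.09 ± 0.25 TPM of white light. Among the B-box genes, which encode zinc finger partners of HY5, BBX31 held 33.6, 35.1 and 31.3 against 2.04, 2.31 and 2.34 TPM (3.41 ± 0.17). BBX25 held 70.4, 54 and 61.4 TPM against 3.68, 5.68 and 7.65 TPM (3.27 ± 0.18), and its ABA values were below the white-light mean of 15.8 ± 0.93 TPM. BBX21 went the other way, with 18.7, 17.3 and 21.8 TPM under UV-B and 27.3, 25.1 and 26.5 TPM under ABA (-0.43 ± 0.09), and both groups lay below the 43 ± 1.32 TPM of white light.

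Flavonoid sunscreens are made from phenylalanine by the phenylpropanoid pathway and then by flavonoid enzymes. All 15 flavonoid and anthocyanin enzyme genes tested were higher under UV-B, each by more than 2-fold, beside 33.3% and 8.44% of all genes. Their median difference was 3.29, and BAN was at or near 0 in all 6 libraries and not tested. CHS, chalcone synthase, the first committed step, held 2633, 2080.0 and 2077 TPM under UV-B and 57.1, 34.9 and 44.3 TPM under ABA (5.63 ± 0.20, adjusted p = 3.29e-10). F3H, flavanone 3-hydroxylase, held 1145, 1113 and 1042 against 16.9, 10.06 and 11.8 TPM (6.33 ± 0.15, adjusted p = 1.47e-11). FLS1, flavonol synthase, held 703, 813 and 710.2 against 12.7, 10.9 and 13.1 TPM (5.81 ± 0.14, adjusted p = 2.17e-11). CHS, F3H and FLS1 are among the 12 highest genes, for which separate ranges were required. Differences were smaller in the late anthocyanin branch. DFR, the first enzyme of that branch, held 46.3, 46.4 and 36.5 against 14.6, 11.1 and 9.25 TPM (1.82 ± 0.21). LDOX, the next enzyme, held 59.5, 72.9 and 57.5 against 26, 19.3 and 14.4 TPM (1.65 ± 0.23), and UGT75C1, an anthocyanin glucosyltransferase gene, differed by 1.34 ± 0.20. ABA levels of DFR and LDOX were above their white-light means of 2.86 ± 0.93 and 3.75 ± 0.79 TPM in every library.

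The general phenylpropanoid list had 13 of 17 genes higher and 2 lower, beside 33.3% and 24.9% of all genes, and 2 not called. Its median difference was 1.42. Family members parted here. PAL1, a phenylalanine ammonia-lyase gene, held 853, 793 and 804 TPM under UV-B and 77.8, 79.4 and 82.9 TPM under ABA (3.33 ± 0.07, adjusted p = 1.42e-11), and PAL2 differed by 3.72 ± 0.10. PAL4 was the reverse, at 0.57, 2.29 and 2.78 TPM under UV-B and 14.1, 11.5 and 13.1 TPM under ABA (-2.36 ± 0.25, adjusted p = 5.37e-06), on either side of the 5.09 ± 0.51 TPM of white light. The 4-coumarate CoA ligase genes divided in the same manner. 4CL3, the member tied to flavonoids, held 176, 131 and 132 against 6.53, 4.67 and 6.42 TPM (4.42 ± 0.16), while 4CL5 averaged 6.66 ± 1.05 against 13.8 ± 3.17 TPM (-0.93 ± 0.16) and 4CL2 did not pass (0.18 ± 0.12, adjusted p = 0.205). UGT84A2, for a sinapate glucosyltransferase, held 447, 419.9 and 410.0 against 44.3, 47.7 and 50.8 TPM (3.14 ± 0.08), and SNG1, which carries out the next step to sinapoylmalate, did not pass (0.17 ± 0.14, adjusted p = 0.301) except without ABA replicate 1 (adjusted p = 0.0393).

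The MYB factors that control these enzymes fell into groups too. Of 10 flavonoid regulators 8 were higher, 1 was lower and 1 was not called, beside 33.3% of all genes higher. MYB12, a flavonol activator, held 41, 37.2 and 34.4 TPM under UV-B and 0.08, 0.32 and 0.38 TPM under ABA (4.94 ± 0.14, adjusted p = 5.69e-11). MYB111, another flavonol activator, held 74.3, 87 and 89 against 1.5, 2 and 1.58 TPM (4.97 ± 0.15), below the 4.93 ± 0.71 TPM of white light in all 3 ABA libraries. MYB75, an anthocyanin activator, held 34, 39.8 and 31.8 TPM under UV-B and 22.8, 18 and 21.5 TPM under ABA (0.73 ± 0.20, adjusted p = 0.00622), and both groups were above the 4.45 ± 0.91 TPM of white light. TT8, the bHLH partner of anthocyanin MYB factors, was the lower one, at 9.26, 5.74 and 6.28 against 10.9, 9.54 and 12.5 TPM (-0.59 ± 0.16, adjusted p = 0.0067), with white light at 1.83 ± 0.03 TPM.

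Among the 12 highest differences, 7 genes belonged to the photoprotection, flavonoid and receptor lists and 5 to none. BIC2, an inhibitor of the blue-light receptors called cryptochromes, held 177, 204 and 170.2 TPM under UV-B and 2.32, 1.39 and 1.18 TPM under ABA (6.15 ± 0.16, adjusted p = 3.37e-11). Its ABA values lay below white light (7.5 ± 0.9 TPM) and its UV-B values above. FAD4, for a plastid desaturase of phosphatidylglycerol, held 128, 107 and 104 against 0.94, 1.1 and 1.52 TPM (5.71 ± 0.19). AT3G56290, annotated as a potassium transporter, held 436, 531 and 469 against 6.68, 6.55 and 5.83 TPM (6.02 ± 0.10). The values of AT5G62210, annotated as an embryo-specific protein, were 319, 309 and 301 TPM under UV-B and 4.95, 3.72 and 4.05 TPM under ABA (5.9 ± 0.14). MPC2, a mitochondrial pyruvate carrier gene, held 351, 77.4 and 106 TPM against 1.38, 0.13 and 0 TPM, but it starts 244 bp beyond the end of ELIP2 on the same strand, and reads that run on from ELIP2 cannot be told apart from it here. Exons of F3H, GPX7 and FAD4 overlap those of an antisense gene by 1415, 751 and 186 bp, which leaves their values uncertain to that extent.

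**Figure D2:**
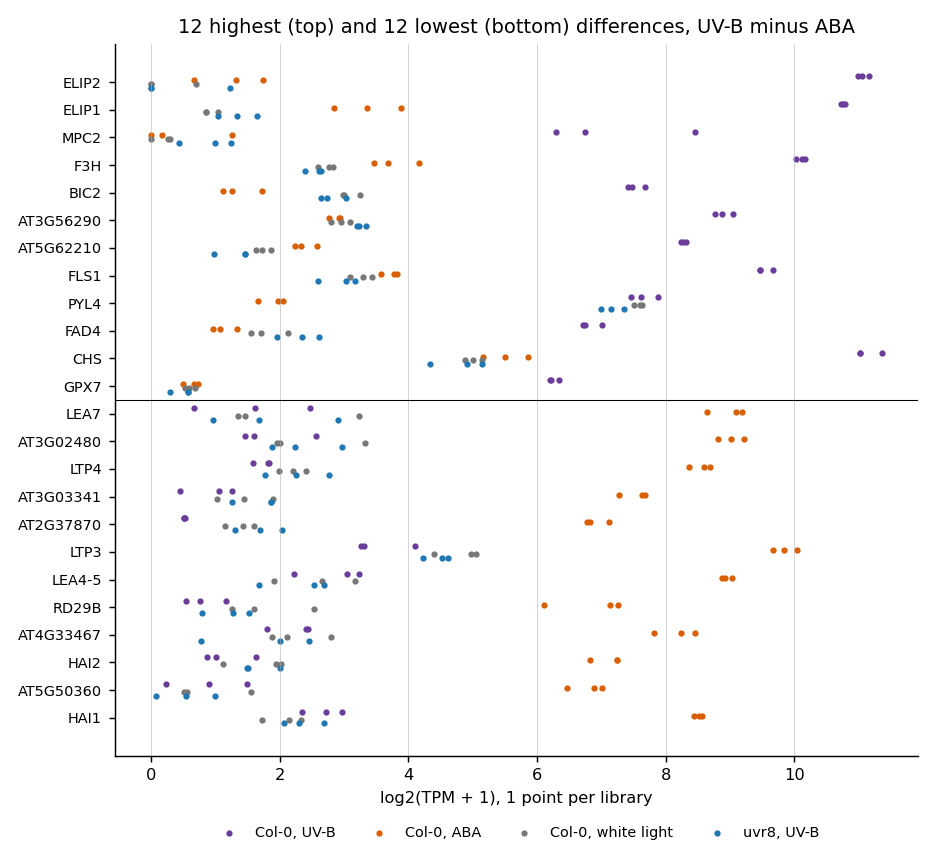
log2(TPM + 1) (x axis) of the 12 genes with the highest and the 12 with the lowest difference (y axis), 1 point per library, coloured by group. UV-B and ABA libraries are separate in every gene shown because the genes were chosen so. Among the upper 12, all but PYL4 also stand apart from white light under UV-B. In the lower 12 the ABA libraries also stand apart from white light and from uvr8 under UV-B.

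The receptors of ABA are encoded by 14 genes, of which 11 were tested, with a median difference of 2.22. Under UV-B 9 were higher than under ABA and 1 was lower, beside 33.3% and 24.9% of all genes, and 1 was not called. Summed over the list, receptor transcripts stood at 507.4, 496.6 and 521.3 TPM under UV-B and at 104.2, 106.5 and 105.1 TPM under ABA. PYL4 held 235, 175 and 195 TPM under UV-B and 2.92, 2.18 and 3.15 TPM under ABA (5.76 ± 0.13, adjusted p = 1.42e-11). Its white-light level was 190.0 ± 7.93 TPM, within the UV-B range, so the gap between the groups lay on the ABA side. The same order was seen for PYL5 (36.7, 48 and 49.7 against 2.43, 4.27 and 3.08 TPM, white light 63.5 ± 7.38). PYR1 held 65.3, 80.6 and 75.5 TPM against 13.6, 13.7 and 12.1 TPM with white light at 84.5 ± 10.2 TPM. PYL6 was listed at 18.1, 22.8 and 23.5 TPM under UV-B and 0.04, 0.04 and 0 TPM under ABA, beside 18.9 ± 2.96 TPM in white light.

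A pair of receptor genes showed another order. PYL11 held 24.3, 20.3 and 23.8 TPM under UV-B, 0.25, 0.49 and 1.45 TPM under ABA and 0.65 ± 0.39 TPM in white light (3.84 ± 0.23, adjusted p = 3.42e-08). PYL12 held 3.52, 3.43 and 4.1 TPM under UV-B and was listed at 0 in the 3 ABA and the 3 white-light libraries (adjusted p = 3.11e-08). Both therefore stood above white light under UV-B, and in uvr8 under UV-B PYL11 averaged 0.65 ± 0.13 TPM. PYL7 was the lower one, at 15.1, 17.1 and 18 against 33.7, 29.8 and 31.3 TPM (-0.88 ± 0.10, adjusted p = 8.98e-06). PYL9 did not pass (-0.38 ± 0.17, adjusted p = 0.0746), but it was called lower without the second ABA replicate (adjusted p = 0.00609) and after TMM-style scaling (adjusted p = 0.0189).

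The PP2C phosphatases, which the receptors inhibit, went the other way. All 8 clade A PP2C genes tested were lower under UV-B than under ABA, beside 24.9% of all genes, with a median difference of -4, and AHG1 was below the filter. HAI2 held 2.09, 1.02 and 0.82 TPM under UV-B and 149.9, 112 and 151 TPM under ABA (-5.94 ± 0.26, adjusted p = 2.03e-09). HAI1 held 5.59, 6.81 and 4.1 against 346, 366 and 379 TPM (-5.83 ± 0.20, adjusted p = 1.98e-10). PP2CA held 20.2, 22.9 and 16.7 against 530.2, 515 and 567 TPM (-4.69 ± 0.11, adjusted p = 1.65e-11), and its UV-B values were below the 31.6 ± 2.77 TPM of white light. ABI1, the phosphatase gene first known from an ABA-insensitive mutant, held 53.2, 57.5 and 54.7 against 417, 433 and 432 TPM (-2.93 ± 0.07), and the smallest difference of the list was that of HAB2 (-1.87 ± 0.12). UV-B and ABA ranges were separate for every one of the 8 genes, beside 25.6% of all genes in this direction and 35.4% in the other. For HAI1 and HAI2 this was a condition of selection.

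The SnRK2 kinases differed little by comparison. Of 9 genes tested, 6 were lower, beside 24.9% of all genes, 1 was higher and 2 were not called, with a median of -0.52. OST1, the kinase of guard cell ABA signalling, held 21, 18.8 and 17.3 TPM under UV-B and 24.6, 21.7 and 30.6 TPM under ABA (-0.4 ± 0.12, adjusted p = 0.015), both above the 10.6 ± 0.97 TPM of white light, and the call was lost without UV-B replicate 3 (adjusted p = 0.0645) or ABA replicate 3 (adjusted p = 0.0717). SNRK2.2 held 66.9, 75.9 and 71 against 115, 117 and 119.9 TPM (-0.71 ± 0.06), and SNRK2.3 did not pass (-0.06 ± 0.10, adjusted p = 0.608). The outer members of the list were SNRK2.7, at 1.22, 1.06 and 0.91 against 12.4, 8.33 and 13.1 TPM (-2.55 ± 0.22), and SNRK2.8, at 3.46, 2.7 and 3.1 against 0.48, 0.71 and 0.52 TPM (1.38 ± 0.19).

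**Figure D3:**
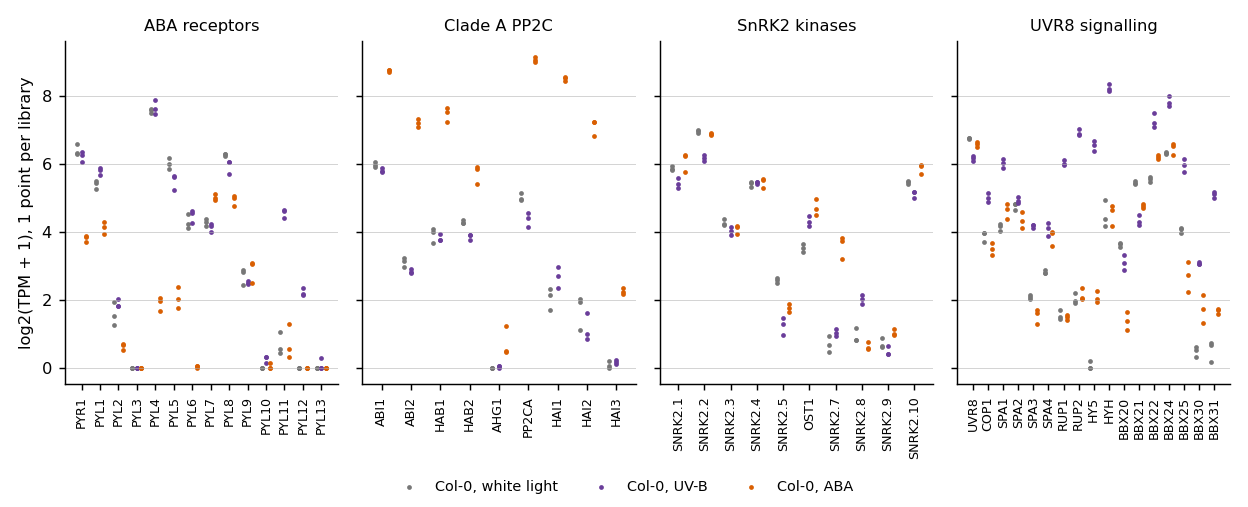
log2(TPM + 1) (y axis), 1 point per library, of every member of the ABA receptor, clade A PP2C, SnRK2 and UVR8 signalling lists (x axis) in Col-0 under white light, UV-B and ABA. PYR1, PYL1, PYL4, PYL5, PYL6 and PYL8 stand lowest under ABA, all PP2C genes stand highest under ABA, and RUP1, RUP2, HY5, HYH and BBX31 stand highest under UV-B.

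None of the 22 ABA-related transcription factor genes tested was higher under UV-B and 21 were lower, beside 33.3% and 24.9% of all genes. Only 1 was not called, and the median of the list was -2.42. ABI3 and ABI4, factors of seeds, were at or near 0 in all 6 libraries. NAC019, a NAC factor of drought responses, held 17, 10.5 and 14.1 TPM under UV-B and 520.2, 722 and 650.3 TPM under ABA (-5.42 ± 0.18, adjusted p = 1.98e-10). AFP1, an inhibitor of the bZIP factor ABI5, held 6.19, 5.03 and 3.54 against 237, 179 and 251 TPM (-5.25 ± 0.16). HB7, a homeodomain factor that responds to water deficit, held 12.8, 9.65 and 8 against 364, 340.2 and 413 TPM (-5.09 ± 0.14). In the ABF group the differences were uneven. ABF3 held 21, 13.3 and 14.3 against 267, 210.0 and 256 TPM (-3.85 ± 0.14), whereas ABF1 differed by -0.66 ± 0.14, ABF2 by -1.35 ± 0.09 and ABF4 by -0.68 ± 0.13. UV-B levels of ABF2 (33.9, 31.2 and 34.5 TPM) were between ABA (89.3, 75.2 and 95.7 TPM) and white light (21.9 ± 1.08 TPM), as were those of RAP2.6, an ERF factor, with 214, 147 and 164 TPM under UV-B, 434, 475 and 519.9 TPM under ABA and 89.2 ± 9.86 TPM in white light.

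Genes that make, break down or carry ABA were mostly higher in the ABA group, with 9 of 13 tested lower under UV-B, 1 higher and 3 not called. Over all genes, 24.9% were lower and 33.3% higher. NCED3, the rate-limiting enzyme of stress-induced ABA synthesis, held 4.31, 4.76 and 3.52 TPM under UV-B and 27.4, 19.7 and 35.3 TPM under ABA (-2.42 ± 0.20, adjusted p = 4.36e-07), while NCED2, NCED5, NCED6 and NCED9 were below the filter. The ABA 8′-hydroxylase genes, which inactivate the hormone, parted. CYP707A1 held 10.2, 7.77 and 9.59 against 136, 149 and 166 TPM (-3.9 ± 0.11), CYP707A3 differed by -2.63 ± 0.12 and CYP707A4 by -2.25 ± 0.15. CYP707A2 held 22.6, 20.2 and 20.3 TPM under UV-B and 20.3, 22.7 and 21.2 TPM under ABA (95% interval of the difference -0.31 to 0.26), with both groups above the 3.26 ± 0.49 TPM of white light. ABA1, zeaxanthin epoxidase, an early step of the synthesis, also stood above its white-light mean of 32.3 ± 2.6 TPM in both groups, at 145, 133 and 122 and 125, 93.9 and 129 TPM (0.21 ± 0.11, adjusted p = 0.132). ABCG25, an ABA exporter gene, held 4.99, 5.66 and 5.57 against 23.8, 23.4 and 24.5 TPM (-1.96 ± 0.09).

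Dehydration and late embryogenesis abundant (LEA) genes, whose products protect drying cells, were nearly all on the ABA side. Of 22 tested, 21 were lower under UV-B by at least 2-fold, beside 8.01% of all genes, and 1 was not called. Their median was -2.59. The listed members together took between 13740 and 16520 TPM per library under UV-B and between 49670 and 50370 TPM under ABA. LEA7 held 4.56, 2.08 and 0.59 TPM under UV-B and 545, 399.9 and 585 TPM under ABA (-7.39 ± 0.58, adjusted p = 3.36e-07), with white light at 3.9 ± 3.91 TPM. AT3G02480, the next in rank, held 4.9, 2.02 and 1.75 against 517, 449.6 and 594 TPM (-7.15 ± 0.39, adjusted p = 1.23e-08). Their 250 bases before the start, shown as the counterpart to the ELIP windows and with the same capitals, lie at chr1:19619474-19619723 and chr3:511970-512219 of TAIR10.1, both on the plus strand.
LEA7: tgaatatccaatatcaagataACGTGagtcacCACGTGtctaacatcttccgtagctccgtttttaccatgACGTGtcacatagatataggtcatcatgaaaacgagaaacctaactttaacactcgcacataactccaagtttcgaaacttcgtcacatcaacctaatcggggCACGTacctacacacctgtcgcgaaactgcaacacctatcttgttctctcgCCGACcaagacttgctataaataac
AT3G02480: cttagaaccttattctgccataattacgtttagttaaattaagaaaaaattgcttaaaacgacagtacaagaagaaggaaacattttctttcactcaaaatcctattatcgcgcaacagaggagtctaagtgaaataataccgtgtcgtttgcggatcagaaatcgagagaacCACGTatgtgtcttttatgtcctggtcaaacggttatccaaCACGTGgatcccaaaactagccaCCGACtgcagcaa
The LEA7 window holds ACGTG at 4 places and the AT3G02480 window at 2, and each holds CCGAC once.

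RD29B, a classic ABA marker, held 1.25, 0.7 and 0.45 TPM under UV-B and 152, 68.2 and 139.6 TPM under ABA (-6.01 ± 0.35, adjusted p = 2.65e-08). RAB18, a dehydrin gene, held 9.18, 12.4 and 7.18 against 624, 466 and 689 TPM (-5.82 ± 0.18, adjusted p = 9.36e-11). LTP3 and LTP4, neighbouring genes for lipid transfer proteins, differed by -6.29 ± 0.22 and -6.8 ± 0.21. COR15A, for a chloroplast protein that protects membranes, held 2761, 3832 and 3032 TPM under UV-B, 7897, 8361 and 7458 TPM under ABA and 1358 ± 153 TPM in white light (-1.31 ± 0.14, adjusted p = 5.74e-06). Its neighbour in the family, COR15B, was the one not called, at 541, 697 and 604 TPM under UV-B and 679, 625 and 604 TPM under ABA (-0.06 ± 0.10, adjusted p = 0.665), both above the 232 ± 17.2 TPM of white light. KIN1, a small hydrophilic protein gene of cold and ABA responses, held 302, 326 and 267 against 3108, 2930.3 and 3105 TPM (-3.35 ± 0.12), with white light at 156 ± 22.7 TPM.

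Other genes of the 12 lowest differences that are in none of the lists had the same shape. AT3G03341, annotated as a cold-regulated protein, held 1.08, 1.4 and 0.37 TPM under UV-B and 197, 153 and 204 TPM under ABA (-6.6 ± 0.26). AT2G37870, of the lipid transfer superfamily, held 0.43, 0.42 and 0.44 against 138, 109 and 113 TPM (-6.39 ± 0.18), and its UV-B libraries were all below the 1.65 ± 0.4 TPM of white light. AT5G50360, annotated as a von Willebrand factor A domain protein, differed by -5.91 ± 0.35, and AT4G33467, which overlaps another gene over 253 bp of exon, by -5.96 ± 0.37.

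Windows of 25 bases (fewer at the edge of the gene) around the ACGTG nearest the start show the motif in its setting in genes from each end of the ranking, again with ACGTG, either strand, or CACGTG in capitals. They stand for flavonoid synthesis and redox control at the UV-B end and for phosphatase and LEA genes at the ABA end.
CHS, chr5:4488234-4488258, plus strand: ttaagtatgCACGTGtaagaactgg
F3H, chr3:19024969-19024993, plus strand: catttttaagACGTGgctttctatc
GPX7, chr4:15409997-15410021, plus strand: aatatggaaaACGTGttctccctgt
HAI2, chr1:2282829-2282850, minus strand: acgctttgtaACGTGtaacgat
RD29B, chr5:21237001-21237020, plus strand: gacgcatcgtACGTGtcaga
LEA4-5, chr5:2090469-2090493, minus strand: cgtctcactgACGTGtcgtcaagaa
These sites lie 232, 213, 71, 12, 10 and 53 bases before the annotated start, in that order. Of the 12 highest genes 5 hold ACGTG within 250 bases of the start, and of the 12 lowest 9 do. Over larger groups, ACGTG on either strand stood in 37% of the 100 genes with the highest called differences, in 60% of the 100 lowest and in 23.5% of all 18995 tested genes with such a window. CACGTG, which contains ACGTG, stood in 9%, 33% and 7.49%. ACGTGGC and ACGTGTC, extensions known from ABA-responsive elements, stood in 6% and 6% of the highest, 17% and 26% of the lowest and 4.01% and 4.31% of all. CCGAC stood in 16%, 21% and 13.3%. With 1000 bases, the shares for ACGTG were 60%, 83% and 54.7%, and those for CACGTG 14%, 48% and 16.1%. A match is a description of letters in a window and not of a bound site.

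Compatible solutes, wax and water channels are further known outputs of ABA. In the list of proline and galactinol genes, 3 of 7 were higher and 3 lower, beside 33.3% and 24.9% of all genes, and 1 was not called. GOLS1, called higher, lost its call after TMM-style scaling (adjusted p = 0.141), with a replicate block (adjusted p = 0.0683) and without any 1 library except UV-B replicate 3. P5CS1, the rate-limiting enzyme of proline synthesis, held 14, 12.9 and 12 TPM under UV-B and 419, 308 and 418 TPM under ABA (-4.76 ± 0.14, adjusted p = 9.36e-11). ERD5, a proline dehydrogenase gene that works in the opposite direction, held 86.6, 83 and 87.9 against 33.5, 35.5 and 39.9 TPM (1.22 ± 0.08, adjusted p = 4.11e-08). GOLS2, a galactinol synthase gene, held 0.14, 0.18 and 0.05 against 23.2, 14.5 and 25.2 TPM (-4.26 ± 0.23), and its UV-B values were below the 1.06 ± 0.56 TPM of white light.

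Cuticular wax genes, with a median of -1.46, had 15 of 16 tested lower and 1 higher, beside 24.9% and 33.3% of all genes. CER1, an enzyme of alkane formation, held 35.4, 35 and 29.4 TPM under UV-B and 356, 258 and 392 TPM under ABA (-3.28 ± 0.16, adjusted p = 4.93e-09), with white light at 33.6 ± 1.62 TPM. KCS2, a fatty acid elongase gene, held 9.6, 4.5 and 3.68 against 149, 99.1 and 169 TPM (-4.4 ± 0.26), but 1258 bp of its exons overlap an antisense gene. MYB30 was the higher one (0.37 ± 0.10, adjusted p = 0.00827), at 18.1, 17.1 and 18.8 against 12.1, 13.1 and 16.1 TPM, and both groups lay below the 32.2 ± 1.42 TPM of white light. Of 17 aquaporin genes tested, 14 were lower, 1 was higher and 2 were not called. PIP1;1, a plasma membrane water channel gene, held 101, 88 and 88.2 against 629, 660.1 and 664 TPM (-2.8 ± 0.08, adjusted p = 4.38e-11), on either side of the 159.7 ± 6.89 TPM of white light. PIP1;5 was the higher one (0.45 ± 0.08).

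Chloroplast genes split by role. In the antenna and Rubisco small subunit list, 14 of 24 were higher, 2 lower and 8 not called, with a median of 0.43, beside 33.3% and 24.9% of all genes. LHCB7, a rare antenna protein, held 49.7, 48.2 and 46.7 TPM under UV-B and 4.57, 3.4 and 4.19 TPM under ABA (3.29 ± 0.14, adjusted p = 1.02e-09). PSBS, which triggers the harmless loss of excess light energy, held 1461, 1770.0 and 1584 against 372, 373 and 318 TPM (2.18 ± 0.09), with white light at 397 ± 29.3 TPM. RBCS1B, a small subunit gene of Rubisco, held 1198, 1552 and 1326 against 172, 166 and 149 TPM (3.05 ± 0.11), and its ABA values were below the 806 ± 74.3 TPM of white light. The main antenna genes were closer, for example LHCB1.3 at 9827, 12371 and 11385 against 11964, 11112 and 10058 TPM (adjusted p = 0.913), though near-identical copies make values of single LHCB1 genes uncertain. LHCB1.4 (-1.02 ± 0.18) and LHCB4.2 (-0.46 ± 0.15) were lower, and the latter lost its call without UV-B replicate 1 (adjusted p = 0.0766) or ABA replicate 1 (adjusted p = 0.0796).

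Genes of chlorophyll synthesis and breakdown, 18 in all, had 9 higher and 7 lower, beside 33.3% and 24.9% of all genes, and 2 not called. The called genes split by the direction of the pathway except at protochlorophyllide reduction. CHLH, a subunit of magnesium chelatase, held 279.6, 266 and 268 TPM under UV-B and 97.1, 55.8 and 81 TPM under ABA (1.82 ± 0.18, adjusted p = 2.32e-06). GUN4, its activator, held 236, 204 and 201 against 62.7, 42.6 and 55.3 TPM (1.99 ± 0.13), with 946 bp of exon shared with an overlapping gene. The breakdown genes NYE1, NYE2, NYC1, PPH and PAO were all lower, and NYE2, for a magnesium dechelatase, held 1.32, 1.45 and 1.18 against 8.71, 10.07 and 11.5 TPM (-2.26 ± 0.18, adjusted p = 3.28e-07). PAO, for the enzyme that opens the pigment ring, held 33.8, 29.7 and 28 against 108, 87.2 and 116 TPM (-1.73 ± 0.11), while the protochlorophyllide oxidoreductase genes PORA (-1.12 ± 0.15) and PORB (-0.75 ± 0.14) were lower as well. PORC, of the same family, did not pass, but was called higher without ABA replicate 1 (adjusted p = 0.00601). CHLD, a synthesis gene called higher, lost its call after TMM-style scaling (adjusted p = 0.0606) and without any 1 library except ABA replicate 1. Carotenoid pathway genes had 11 of 13 higher, 1 lower and 1 not called. BCH1, a beta-carotene hydroxylase gene, held 224, 206 and 199.8 against 25.3, 25.4 and 27.9 TPM (2.96 ± 0.09, adjusted p = 9.37e-11). PSY, the entry step, held 205, 178 and 191 against 80.8, 62.2 and 76.3 TPM (1.38 ± 0.09), and the one lower gene, LUT2 (-0.28 ± 0.09, adjusted p = 0.0224), lost its call when any of UV-B replicates 1 and 3 or ABA replicates 1 and 3 was left out.

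Antioxidant enzyme genes were split, with 7 of 15 tested higher, 6 lower and 2 not called, beside 33.3% and 24.9% of all genes. The catalases went in opposite directions. CAT2, the main catalase of photorespiration, held 621, 496 and 473 TPM under UV-B and 62.5, 52 and 65.1 TPM under ABA (3.12 ± 0.11, adjusted p = 2.33e-10), with white light at 55.4 ± 3.03 TPM. CAT3 held 320.3, 319 and 305 against 1019.8, 617 and 842 TPM (-1.36 ± 0.16), where white light stood at 913 ± 96.4 TPM. CAT1 held 36.2, 28.1 and 33.8 against 74.6, 75.6 and 83.9 TPM (-1.23 ± 0.09). Heat shock genes had 6 of 13 higher and 2 lower, and the higher ones fell to 4 after TMM-style scaling, to 3 without UV-B replicate 1 and to 2 without ABA replicate 1. HSFA6B, a heat shock factor known to act in ABA responses, held 2.28, 0.87 and 1.11 against 54.5, 37.8 and 56.4 TPM (-4.41 ± 0.21, adjusted p = 3.96e-09). HSFC1, which overlaps another gene over 1668 bp of exon, differed by -3.53 ± 0.14. The chaperone genes HSP101 (0.13 ± 0.15), HSP70B (0.06 ± 0.19) and HSP17.6A (0.07 ± 0.20) did not pass.

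Of 10 DNA damage genes tested, 8 were higher under UV-B, 1 was lower and 1 was not called, beside 33.3% of all genes higher. SMR7, a cell cycle inhibitor of the damage response, held 7.94, 6.33 and 6.37 TPM under UV-B and 0.52, 0.75 and 0.54 TPM under ABA (2.29 ± 0.18, adjusted p = 2.94e-07). In uvr8 under UV-B it averaged 5.46 ± 0.72 TPM and in white light 0.72 ± 0.39 TPM. BRCA1, a recombination gene, held 5.2, 4.75 and 5.42 against 2.1, 0.88 and 1.12 TPM (1.4 ± 0.20), beside 6.88 ± 1.36 TPM in uvr8. TSO2, a ribonucleotide reductase subunit, held 70.02, 72.1 and 72.7 against 31, 22.2 and 24.1 TPM (1.45 ± 0.12), beside 80.3 ± 9.32 TPM in uvr8. For CHS, the uvr8 mean was 27.6 ± 7.73 TPM.

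Early stress transcription factors had 10 of 17 higher and 6 lower, beside 33.3% and 24.9% of all genes. CBF1, a factor of cold responses, held 2.49, 1.02 and 1.18 TPM under UV-B and 16.1, 12.5 and 16.3 TPM under ABA (-2.68 ± 0.27, adjusted p = 3.12e-06), and CBF2 and CBF3 differed by -2.06 ± 0.22 and -1.5 ± 0.15. DREB2A, its relative in drought and heat responses, had the opposite sign, at 51.9, 38.8 and 44 against 18.1, 12.5 and 19.8 TPM (1.38 ± 0.15, adjusted p = 8.14e-06), with white light at 5.07 ± 0.41 TPM. ERF105, which shares 965 bp of exon with an overlapping gene, held 12.9, 11.4 and 13.6 against 1.77, 0.83 and 3.28 TPM (2.28 ± 0.23), where white light averaged 10.9 ± 0.87 TPM.

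Growth-related lists were mixed. Clock genes had 14 of 21 higher and 2 lower, beside 33.3% and 24.9% of all genes, with a median of 0.61. RVE8, a morning MYB-like factor, held 9.53, 6.75 and 7.74 TPM under UV-B and 0.64, 0.24 and 0.22 TPM under ABA (2.72 ± 0.19, adjusted p = 1.17e-07), and RVE4 and PRR5 differed by 1.45 ± 0.12 and 1.37 ± 0.10. BOA, a homologue of the evening complex factor LUX, was lower, at 3.29, 3.23 and 2.86 against 12.4, 12.2 and 12.6 TPM (-1.7 ± 0.12), and it overlaps an antisense gene over 1679 bp. Of 34 auxin-related genes tested, 13 were higher, 11 lower and 10 not called. Both counts lie near the 33.3% and 24.9% of all genes, so they do not set this list apart. Among the auxin genes, the 4 GH3 genes tested, GH3.2, GH3.3, GH3.5 and GH3.6, whose enzymes conjugate auxin to amino acids, were lower, and GH3.1 was below the filter. GH3.5 held 6.56, 4.77 and 6.05 against 96.6, 75.6 and 105 TPM (-3.78 ± 0.13, adjusted p = 3.01e-10), and white light stood between, at 37.9 ± 1.18 TPM. GH3.3 held 6.41, 6.76 and 9.68 against 61.1, 42.7 and 75.3 TPM (-2.8 ± 0.19), with white light at 44.8 ± 5.03 TPM. By contrast SAUR14, of the small auxin-up RNA family, held 44.8, 53.6 and 47 against 12.3, 11.4 and 10.14 TPM (2.01 ± 0.13), with white light at 44.9 ± 4.17 TPM, and SAUR15 and SAUR16 differed by 1.9 ± 0.22 and 1.84 ± 0.18.

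Expansin and xyloglucan enzyme genes, which loosen cell walls, had 7 of 22 higher and 7 lower, with a median of -0.01. These counts are near the 33.3% and 24.9% of all genes. XTH9, called higher, lost its call after TMM-style scaling (adjusted p = 0.152), after rescaling, with no filter and in a fit of the 2 groups alone. It also lost it without ABA replicate 3 or UV-B replicate 2 or 3. XTH23, called lower, lost its call without any 1 library except UV-B replicate 1. The same happened under every other alternative fit except TMM-style scaling and rescaling, for example with a replicate block (adjusted p = 0.0743). XTH19 held 3.87, 2.32 and 2.31 TPM under UV-B and 17.8, 15.4 and 19.6 TPM under ABA (-2.3 ± 0.19), and EXPA5 held 56.5, 62.1 and 57.5 against 22, 15.4 and 21.3 TPM (1.55 ± 0.12). EXPA8 averaged 1.43 ± 0.35 and 0.88 ± 0.34 TPM (adjusted p = 0.0967, and 0.0473 without ABA replicate 3), both far below the 16.7 ± 0.97 TPM of white light. Of 13 PIF and shade regulator genes tested, 3 were higher and 4 lower, near the 33.3% and 24.9% of all genes. After TMM-style scaling 6 were lower, while the lower genes among all 19089 tested rose from 4756 to 5725. PIF3 and PIF4 encode bHLH factors that promote elongation. PIF3 held 20.8, 16.5 and 17.8 against 83.3, 87.5 and 96.1 TPM (-2.22 ± 0.09, adjusted p = 8.35e-10), on either side of the 42.4 ± 2.33 TPM of white light. PIF4 held 14.2, 13.6 and 13.1 against 61.4, 49.4 and 58.8 TPM (-1.97 ± 0.09), with white light at 43.8 ± 2.14 TPM. BEE1, a bHLH gene of brassinosteroid responses, held 25, 26.1 and 27.4 against 2.88, 4.44 and 3.78 TPM (2.54 ± 0.20), and its ABA values were below the 18.3 ± 3.54 TPM of white light.

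Gibberellin genes had 5 of 8 tested higher and 2 lower, beside 33.3% and 24.9% of all genes. GA2OX8, for an enzyme that inactivates gibberellin precursors, held 54.3, 51.6 and 54.5 TPM under UV-B and 2.26, 3.85 and 1.41 TPM under ABA (4.02 ± 0.23, adjusted p = 2.07e-08). GA2OX1 held 10.6, 8.31 and 8.54 against 0.05, 0.05 and 0 TPM (adjusted p = 2.12e-09). GA2OX7, of the same class as GA2OX8, was instead listed at 0 in all UV-B libraries and at 2.57, 2.77 and 1.9 TPM under ABA (adjusted p = 1.2e-06), and GA2OX6 differed by -1.26 ± 0.15.

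Genes of defence compounds and hormones followed. Of 23 glucosinolate genes tested, 9 were higher, 8 lower and 6 not called, and after TMM-style scaling 11 were lower. In the unscaled fit 33.3% of all genes were higher and 24.9% lower, and scaling raised the lower genes from 4756 to 5725. CYP79B2, for the first step of the indole branch from tryptophan, held 59.9, 55 and 53.7 TPM under UV-B and 119, 135 and 123 TPM under ABA (-1.15 ± 0.08, adjusted p = 6.94e-08), and CYP79B3, CYP83B1 and the regulators MYB34 and MYB122 differed by -1.21 ± 0.10, -0.96 ± 0.12, -0.84 ± 0.08 and -1.65 ± 0.20. MYB28, the main regulator of the aliphatic branch, held 38.5, 30.9 and 33.9 against 18.1, 12.8 and 15.4 TPM (1.11 ± 0.13, adjusted p = 1.42e-05), and CYP83A1 and UGT74C1 differed by 1.1 ± 0.17 and 1.23 ± 0.14. MAM1 (0.02 ± 0.18) and CYP79F1 (0.03 ± 0.23) of that branch did not pass, and FMO_GS-OX3, also of that branch, did not pass (-0.42 ± 0.17, adjusted p = 0.0533) but was called lower after TMM-style scaling (adjusted p = 0.0176) and without ABA replicate 3 (adjusted p = 0.0365). MYB28 and CYP79B2 levels were, under UV-B, below their white-light means of 53 ± 4.68 and 97.7 ± 4.5 TPM.

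Jasmonate genes had 12 of 21 lower, beside 24.9% of all genes, 1 higher and 8 not called, with a median of -0.83. VSP2, a vegetative storage protein gene used as a jasmonate marker, held 22.1, 32.8 and 19.4 TPM under UV-B and 629.8, 349 and 378 TPM under ABA (-4.12 ± 0.30, adjusted p = 1.92e-07), with white light at 25.1 ± 9.96 TPM. MYC2, the main bHLH factor of the pathway, held 14, 17.8 and 16.6 against 46.5, 47.8 and 50.7 TPM (-1.53 ± 0.11). Of the JAZ repressors, JAZ10 differed by -1.54 ± 0.14 and JAZ12 by -1.31 ± 0.07, whereas JAZ9 was the higher one, at 118, 123 and 98.7 against 44.6, 44.4 and 42.8 TPM (1.34 ± 0.09, adjusted p = 5.76e-08). Salicylate and defence genes had 8 of 17 higher and 6 lower, beside 33.3% and 24.9% of all genes. Of the called members, ICS1 and NIMIN1 (higher) and SARD1 (lower) each lost the call when some single libraries were left out. NIMIN1 also lost it after TMM-style scaling (adjusted p = 0.0568). PR5 held 41.8, 38.3 and 33 against 5.22, 6.09 and 5.12 TPM (2.58 ± 0.10, adjusted p = 9.21e-10), with white light at 6.86 ± 0.43 TPM, while PR1 held 3.79, 9 and 8.43 against 20.2, 17.45 and 26.2 TPM (-1.52 ± 0.34) and PR2 7.2, 14 and 15.1 against 33.2, 31.9 and 33.3 TPM (-1.43 ± 0.27). PAD4, a lipase-like defence regulator, differed by 1.78 ± 0.12.

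**Figure D4:**
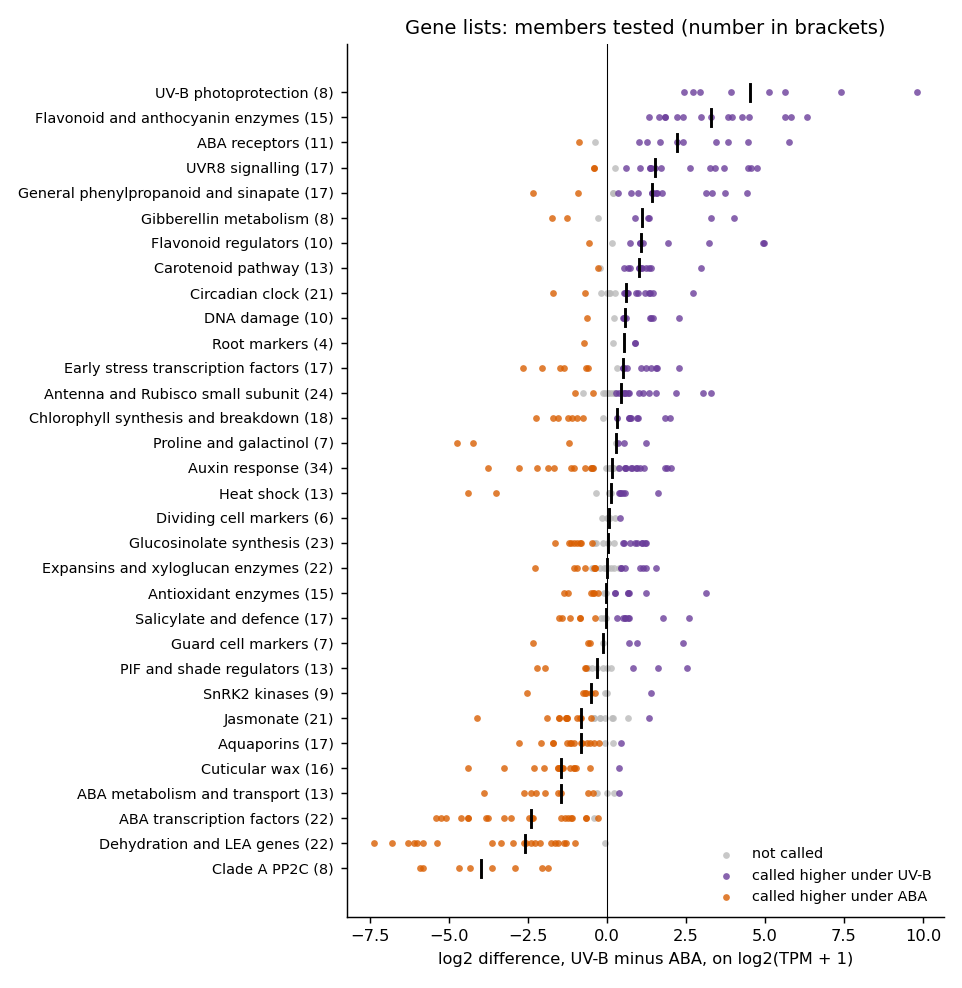
Difference between UV-B and ABA on log2(TPM + 1) (x axis) for each tested member of 32 gene lists (y axis, number tested in brackets), coloured by call, with a black bar at the list's median. Photoprotection and flavonoid genes are all on the UV-B side and clade A PP2C genes all on the ABA side, while lists such as auxin response and glucosinolate synthesis have called members on both.

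Markers of cell types were set beside these results. Of 7 guard cell genes 3 were higher and 3 lower, beside 33.3% and 24.9% of all genes. KAT1, called lower, lost its call with no filter (adjusted p = 0.0694) and with no trend (adjusted p = 0.0527). It also lost it without ABA replicate 1 or 3 or UV-B replicate 2 or 3 (adjusted p between 0.124 and 0.155). MYB60, a guard cell factor, held 18, 18.1 and 19.7 TPM under UV-B and 2.07, 2.65 and 3.46 TPM under ABA (2.41 ± 0.14, adjusted p = 2.07e-08), whereas ALMT12, an anion channel gene of the same cells, held 2.16, 1.62 and 1.47 against 13.4, 11.4 and 14.1 TPM (-2.35 ± 0.15). The summed guard cell list overlapped between groups, at 64.47 to 74.6 TPM under UV-B and 54.83 to 80.26 TPM under ABA. Of 9 root markers 4 were tested, of which 2 were higher and 1 was lower, and EXPA7 and IRT1 were at 0 in all 6 libraries. The root list summed to between 235.1 and 293.3 TPM under UV-B and between 356.3 and 476 TPM under ABA, mostly from PYK10 (-0.74 ± 0.12), and the part of root tissue in the results was not tested. Of 6 genes of dividing cells 1 was higher, CYCD3;1 (0.42 ± 0.15, adjusted p = 0.0244), and it did not pass in a fit of the 2 groups alone (adjusted p = 0.0588) or without UV-B replicate 1 or 3 or ABA replicate 2 or 3 (adjusted p between 0.0682 and 0.11). None of 8 seed maturation markers passed the filter, although ABA replicate 2 summed to 10.38 TPM over them and no other of the 6 libraries exceeded 1.5 TPM.

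A further set of genes held like levels in both groups that were far from white light. For 5033 of the 19089 genes the 95% interval of the difference lay within 0.5 log2 units of 0, whatever their level in white light. By the rule for the genes highest above white light in both groups among those, TAT7, an aminotransferase gene acting on tyrosine, held 87.5, 92.7 and 87.5 TPM under UV-B and 78.4, 87.8 and 98.2 TPM under ABA, against 7.81 ± 0.71 TPM in white light (interval -0.24 to 0.28). ECT8, of a family that reads methylated adenosine in RNA, held 115, 94.8 and 91.4 TPM under UV-B and 119.9, 97 and 128 TPM under ABA, against 10.7 ± 0.06 TPM (interval -0.45 to 0.07), but it was called lower after TMM-style scaling (adjusted p = 0.0168) and without ABA replicate 2 (adjusted p = 0.0358). ATL79, a ubiquitin ligase gene of the RING type, held 41.8, 41.2 and 35.6 TPM under UV-B and 46, 30.6 and 41.5 TPM under ABA, against 6.2 ± 1.14 TPM. AT4G27657 held 24.1, 24.6 and 22.9 TPM under UV-B and 27.4, 28.9 and 22.2 TPM under ABA, against 4.06 ± 0.81 TPM, and CYP707A2 completed these 5 genes.

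Below white light in both groups, AT5G02760, a PP2C gene outside clade A, held 31.2, 27.6 and 38.3 TPM under UV-B and 28.4, 33.6 and 37 TPM under ABA, against 155 ± 4.96 TPM in white light (interval -0.29 to 0.23). ABCB19, an auxin transporter gene, averaged 18.16 ± 1.05 TPM under UV-B and 18.3 ± 4.64 TPM under ABA, against 54.9 ± 2.41 TPM (interval -0.33 to 0.37). PRE1, a small helix-loop-helix protein that promotes growth, held 0.93, 1.27 and 0.85 TPM under UV-B and 1.11, 0.97 and 1.51 TPM under ABA, against 6.16 ± 0.96 TPM. BHLH87 and IBL1, also of helix-loop-helix families, completed these 5. In uvr8 under UV-B, AT5G02760 averaged 186 ± 15.7 TPM and ABCB19 48.9 ± 7.93 TPM, nearer to white light than to Col-0 under UV-B.

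Where white light lay between the groups was counted for the genes that differed by at least 2-fold, as a description, with 0 for the ABA mean and 1 for the UV-B mean on the log2 scale. Of the 1612 genes higher under UV-B, white light lay near the ABA mean (from -0.25 to 0.25) in 386 (23.9%), near the UV-B mean (from 0.75 to 1.25) in 394 (24.4%) and between them in 612 (38%). ELIP2, RUP2 and MYB12 belong to the first kind and PYL4 and PYR1 to the second. Of the 1529 genes lower under UV-B, white light lay near the ABA mean in 115 (7.52%), near the UV-B mean in 597 (39%) and between in 705 (46.1%). HAI1, RD26 and CYP707A3 are of the kind near UV-B. The median position of white light was 0.546 for the higher genes and 0.713 for the lower ones, and that of uvr8 under UV-B was 0.581 and 0.673.

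**Figure D5:**
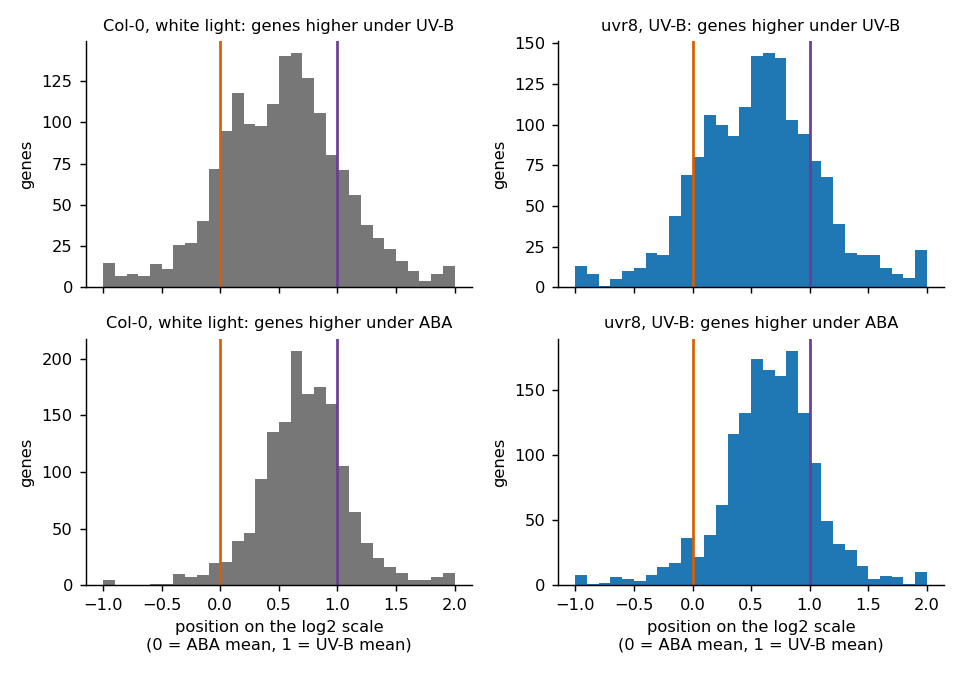
Position of Col-0 in white light (left) and of uvr8 under UV-B (right) on the log2 scale from the ABA mean (0, orange line) to the Col-0 UV-B mean (1, purple line), as histograms of the number of genes, for the 1612 genes higher under UV-B (top) and the 1529 higher under ABA (bottom). Values outside -1 to 2 are drawn in the end bins, and the medians are 0.546 and 0.581 in the upper panels and 0.713 and 0.673 in the lower.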

How the data were processed

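RNA was sequenced from whole seedlings of 4 groups with 3 biological replicates each, with a TruSeq RNA kit, per the labels' protocols. The deposited tables give 1 value per gene and library, which the authors normalised to TPM, as read from the values themselves, since every library total lies between 998197.5 and 998680.8 and values carry decimals. TAIR10 is the genome build per the submitters' processing notes, and the sources used here do not state the aligner, the counting tool or its strand setting. The depth per library is unknown, so no interval from counts is given. No column of another series was used, and none of the 66 library pairs was identical.

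Genes with at least 1 TPM in 3 of the 6 compared libraries were fitted with limma 3.58.1 (R 4.3.3) on log2(TPM + 1) (mean-variance trend, 4 group means over 12 libraries, two-sided, Benjamini-Hochberg over all genes tested). Fold changes on this scale understate those of low genes. Of 522 members of 33 gene lists 519 were used. The members and lists were chosen with earlier results of these data known. Named genes were the 12 highest and 12 lowest called differences with separate ranges whose higher group averaged 5 TPM or more, the 3 largest differences of each list and members needed to account for it, UVR8, HY5, ELIP1, CHS, RAB18, HAI1 and PYL4, and 5 genes each above and below white light at like level in both groups. BLAST+ 2.17.0 found copies of at least 95% identity over 150 bp, and 27 of the 120 genes named by the rule share exon sequence with an overlapping gene. Sequences and positions are from RefSeq TAIR10.1, to which 32536 of 32833 loci matched, and promoter windows are the 250 bases before the annotated gene start. The fit was tested on simulated data. Alternatives were TMM-style scaling, rescaling without organelle, ribosomal and short genes, filters, pseudocount, no trend, 2 groups only, a replicate block, a minimum difference and each library left out. Python 3.11.15 with pandas 2.3.3 and matplotlib 3.10.9 was used for the rest.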

Additional observations from a re-analysis of the deposited data

How the results depend on the processing

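The 11115 genes called, 6359 of them higher and 4756 lower under UV-B, stayed within 1.5 times under every alternative except a minimum log2 difference of 1, which left 3141, 1612 and 1529 by its own construction. TMM-style scaling gave 11427 (5702 higher and 5725 lower), rescaling without organelle, ribosomal and short genes 11144, no filter 11368 of 24681 genes, the filter over 12 libraries 11147, a pseudocount of 0.1 11122, no trend 11100 and the 2 groups alone 10176. Leaving out 1 library at a time gave 10009 to 10750 genes, 5652 to 6152 higher and 4170 to 4985 lower. No direction of a named gene reversed while called.

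Replicate numbers were shared by the groups, and deviations of same-numbered libraries correlated at 0.068, 0.254 and 0.032. The value of 0.254 was the highest of any UV-B and ABA pair, while UV-B replicate 1 correlated best with ABA replicate 3 (0.191). With 3 libraries a group, whether same-numbered libraries share a batch cannot be told from these values. With the replicate number as a block 10954 genes were called, 6260 higher and 4694 lower. Some counts in short lists moved by more than 1.5 times. Without UV-B replicate 1 the heat shock list had 3 genes higher and without ABA replicate 1 it had 2, without ABA replicate 1 there were 2 aquaporin genes higher, and without UV-B replicate 2 there were 2 jasmonate genes higher. TMM-style scaling gave 1 lower gene of dividing cells, KNOLLE (adjusted p = 0.0378). Of the 32 list medians, 6 moved by more than the spread of the libraries' medians (1 SD) with a pseudocount of 0.1, 2 after TMM-style scaling and 1 to 5 when 1 library was left out. Among those given above, a pseudocount of 0.1 gave 4.72 for photoprotection, 3.83 for flavonoid enzymes, 2.48 for ABA receptors and -4.29 for PP2C genes, TMM-style scaling gave 1.33 for general phenylpropanoid genes, and leaving out ABA replicate 2 gave 0.49 for clock genes. TPM hold no depth, 233 genes had a 0 beside a value over 5 TPM within a group, and 3 libraries a group limit the precision.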
